A study of Bos taurus with 48 samples.

Results

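A set of 10 genes needed to copy DNA, namely MCM2, MCM3, MCM4, MCM5, MCM6, MCM7, MCM10, CDC6, PCNA and RRM2, was followed in bovine longissimus muscle from early gestation to 30 months of age and through a diet trial. They were chosen by name: a probe was taken where its gene name, or the symbol in parentheses in its description, was that of a member. This gave 10 genes and 11 probes among the 19721 named genes and features that share the array. Of the 10, 9 were bright enough to be tested among 14658 genes. MCM3 was well above background in 19 of 96 channels, short of the 24 required, and is not tested here.

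Before a cell copies its DNA, the origin recognition complex marks start sites on the chromosome, and CDC6 helps to load a ring made of MCM2 to MCM7 onto each of them. This step is called licensing. The ring is the core of the replicative helicase, MCM10 helps to switch it on, PCNA is the sliding clamp that holds the polymerases on DNA, and RRM2 is the small subunit of ribonucleotide reductase, which makes deoxynucleotides. Cells that have left the cell cycle, such as mature muscle fibres, generally carry little licensing activity, while dividing myoblasts and connective tissue cells carry much of it.

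Total RNA from biopsies labelled longissimus dorsi was hybridised to 48 two-colour arrays of 60-base oligonucleotides, with a different animal in each channel. The developmental arrays paired animals labelled Piedmontese with animals labelled Wagyu, which the methods describe as Piedmontese × Hereford and Wagyu × Hereford crosses. They were sampled at 60, 135 and 195 days of gestation, at birth (labelled 280 days of gestation), and at 3, 7, 12, 20, 25 and 30 months. The diet arrays paired Belmont Red cattle on a weight loss diet, called restricted here, with Belmont Red cattle on a weight growth diet, at times labelled 0, 1 and 2. The methods describe this trial as nutritional deprivation followed by re-alimentation of adults, and the labels do not say what each time was.

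After channels of the same animal were averaged, there were 2 animals at day 60, 5 at day 135, 5 at day 195, 6 at birth, 8 at each of 3, 7, 20, 25 and 30 months, and 6 at 12 months. The diet arrays held 4 restricted and 4 growth animals at time 0, 3 and 4 at time 1, and 2 and 2 at time 2. Day 60 rests on 1 animal of each cross, each hybridised on 3 arrays. The limma SEs and p-values of comparisons with day 60 therefore take the spread between animals from the other ages. The ages after birth share animals, 9 in all, of which 8 were sampled at 5 or 6 ages, and the diet times share 8 animals, of which 7 were sampled at more than 1 time. At day 195 the labels GP041A and GP041B, which share a number, were counted as 2 animals; with both taken as 1 animal, 5, 4 and 8 members passed in the 3 steps from day 60 to birth, as without. Levels are given as log2 intensity after normalization, so that 1 unit is a doubling of signal, and a level can be compared between samples for the same gene but not between genes.

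The members were read through the following stretches of their 60-base probes, shown for the genes on which the results turn. Each is written 5′ to 3′, 30 bases of a probe. The capitals mark AATAAA, the polyadenylation signal hexamer, which was found as written in 1 of the 11 member probes and in 11.8% of all 21475 probes (3.88% held it on the other strand).
MCM2: cttttctgccggccgccttcccacgctgtt
MCM7: ttcttttttcctAATAAAgcgtgtgtccat
RRM2: accacaaggctgtaggaagacatcagactc
CDC6: gcactcccaaggttgtgggggtggtcagga
CDC6, dim probe: ccgcttcacaaaggtacaacgacctgcttc
The longest run of bases shared by the full-length CDC6 probes was 5. The first was well above background in 68 of 96 channels and carries every CDC6 value given here except where stated, while the second reached that level in 12 of 96 and was left out. The GC content of the 11 probes lay between 35.0% and 45.0%.

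The MCM2, MCM4, MCM5, MCM6, MCM7 and PCNA probes were well above background in all 96 channels, and no member probe was saturated. CDC6 (68 of 96), RRM2 (67 of 96) and MCM10 (48 of 96) reached background in many samples, so that their lowest values are compressed towards it. A channel had between 51.1% and 78.9% of all probes well above background.

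One library stood apart. The day 135 sample of animal GP672 had a median correlation of 0.924 with the other channels of its time point, against 0.958 for the next lowest channel in the series. The mean log2 level of 8 skeletal muscle fibre markers was 9.86 in it and 14.59 to 15.27 in the 4 other animals of day 135, and that of 3 muscle precursor markers was 9.09 against 12.96 to 13.24. Its 3 adipocyte markers averaged 13.30 against 8.08 to 9.33. The steps to and from day 135 are therefore given with and without its array, and other results that use day 135 are given with it. In the other libraries of that age the muscle fibre markers were high. In whole biopsies, fewer cells of a type and less RNA per cell cannot be told apart.

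Between day 60 of gestation and birth most of the licensing genes fell. RRM2, MCM4, MCM2, CDC6, MCM5, MCM6 and MCM7 fell, PCNA was slightly higher at birth and MCM10 did not pass the test. Of 9 members, 7 were lower and 1 was higher, against 30.4% of all genes tested that were lower and 36.6% that were higher; 67.0% of genes passed in either direction, so that a change over this span was common. With slide as a block the 7 remained lower. The same 7 had no overlap between the 2 ages downwards, and PCNA upwards, as did 30.0% and 39.2% of all genes. The median member changed by −2.54 on the log2 scale, leaving 17.1% of the day 60 level, and the median of all genes was 0.11.

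RRM2 had the largest fall of the members. Its log2 levels were 10.84 and 10.79 in the 2 animals of day 60, 10.19, 9.68, 9.93, 10.03 and 9.87 at day 135, and 9.17, 9.81, 9.37, 9.33 and 9.5 at day 195. At birth the lowest of 6 animals was 6.74, the median 6.81 and the highest 7.03. Every birth value lay below every fetal value, and 1 of the 6 birth channels was well above background. The change from day 60 to birth was −3.97 ± 0.28 (log2 difference ± SE, limma, adjusted p = 3.7e-17). With birth values this near background its size depends on how background was handled: it was −4.71 with a background offset of 10 in place of 50 and −7.50 with the scanner's processed signals, so that no exact share left at birth is given.

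MCM4, a subunit of the helicase ring, was well above background throughout. It stood at 13.17 and 13.29 at day 60, at 12.96, 12.61, 12.29, 12.83 and 12.34 at day 135, and at 11.81, 12.08, 11.83, 11.88 and 11.63 at day 195. The 6 animals at birth ran from 9.64 through a median of 9.89 to 9.92. The 4 ages did not overlap, and the change to birth was −3.39 ± 0.16 (adjusted p = 1.12e-23).

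MCM2, another ring subunit, read 14.32 and 14.40 at day 60, then 13.51, 13.81, 13.57, 13.14 and 13.45 at day 135, and 12.81, 13.13, 12.57, 12.96 and 12.98 at day 195. Birth values lay between 11.08 and 11.41, with a median of 11.16. It changed by −3.15 ± 0.14 (adjusted p = 3.54e-24), to 11.3% of its day 60 level.

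CDC6, the loader of the ring, was at 9.90 and 9.97 at day 60, at 9.36, 9.11, 9.25, 9.28 and 9.07 at day 135, and at 8.46, 8.94, 8.76, 8.82 and 8.77 at day 195. At birth it was at 6.83 to 7.21 (median 6.93), where 3 of 6 channels were well above background. Again no 2 ages overlapped, and the change to birth was −2.95 ± 0.13 (adjusted p = 2.08e-24). It was −3.58 with the offset of 10, −5.83 with processed signals and −1.40 with the dim probe averaged in, so that CDC6 has no settled place in the order of falls.

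The remaining ring subunits fell less than MCM2 and MCM4. MCM5 went from 13.25 and 13.37 at day 60 to between 10.53 and 11.04 at birth, a change of −2.54 ± 0.18 (adjusted p = 1.58e-17). MCM6 went from 9.63 and 9.89 to between 8.05 and 8.38, a change of −1.55 ± 0.25 (adjusted p = 6.61e-07). MCM7 went from 13.25 and 13.34 to between 12.33 and 12.73, a change of −0.80 ± 0.13 (adjusted p = 1.1e-06). At birth these 3 subunits of a ring whose subunits are loaded together kept 17.1%, 34.2% and 57.5% of their day 60 signal, against 9.56% for MCM4. MCM6 was dim at birth, with a median signal of 2.65 times background against 16.3 at day 60. The MCM6 change ran from −2.07 to −1.39 over the settings tried, so that its share is not exact.

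PCNA and MCM10 did not follow the others in normalized signal. The PCNA probe was dim, and its signal before normalization reached 8.81 times background at most. The median of this ratio was 6.91 at day 60 and 4.59 at birth, so that it was lower at birth while the normalized level was higher. PCNA read 8.43 and 8.35 at day 60 and 8.43 to 9.25 at birth, a difference of 0.32 ± 0.12 (adjusted p = 0.0231), and this call did not hold with slide as a block (adjusted p = 0.0725), with median centring and no scaling between arrays (0.14, adjusted p = 0.594), or without the arrays of replicate 3 (0.19, adjusted p = 0.176). MCM10 read 6.96 and 7.07 at day 60 and 6.72 to 7.08 at birth, a difference of −0.12 ± 0.19 (95% interval −0.50 to 0.25, adjusted p = 0.581). MCM10 was well above background in 8 of the 18 fetal channels, so that a fall could hardly show in it.

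**Figure D1:**
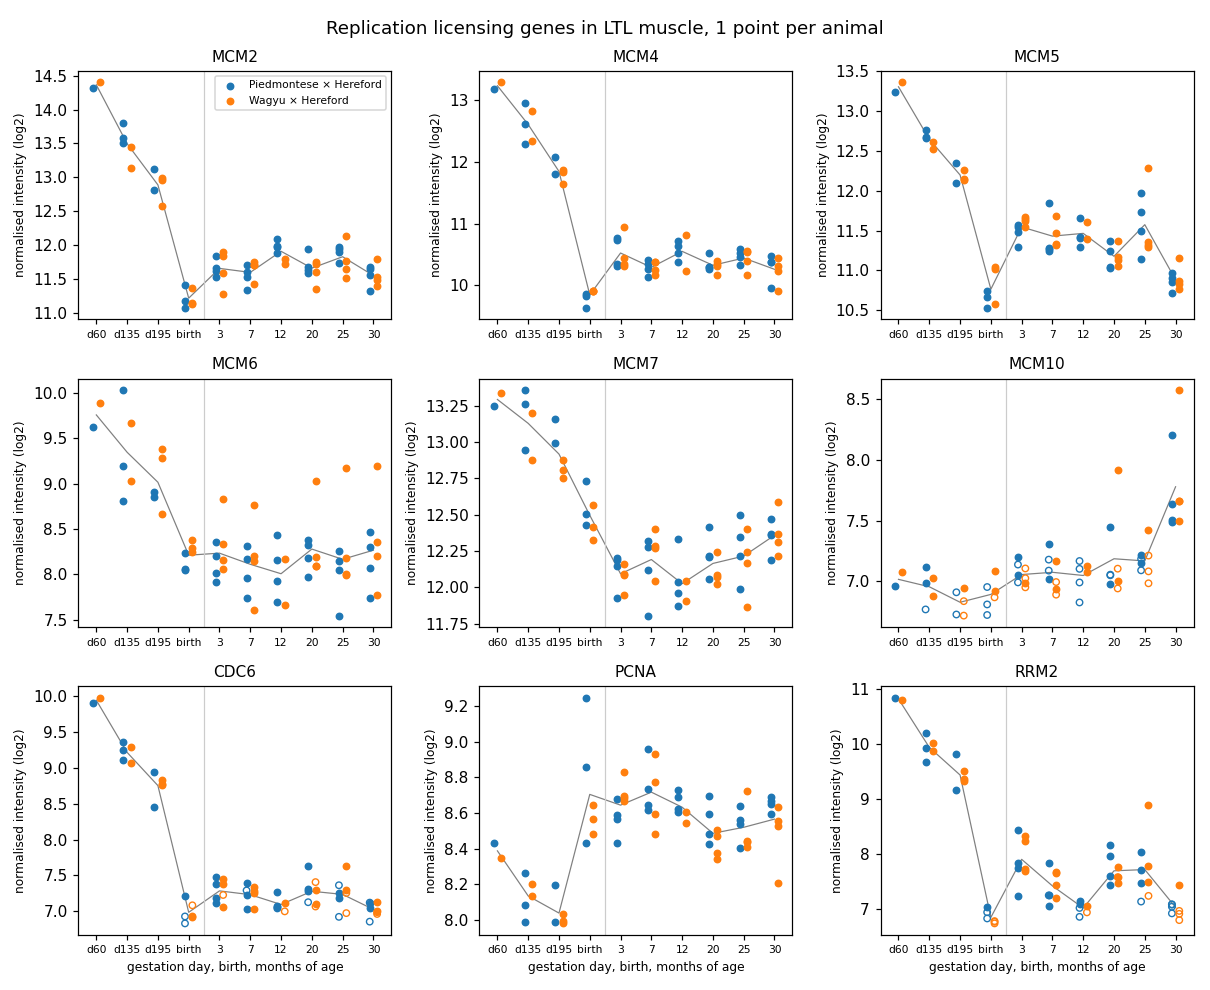
Log2 intensity of each tested member by age, one panel per gene, with a point for each animal (blue for the Piedmontese cross, orange for the Wagyu cross, open where none of its channels was well above background) and a line through the mean of each age. MCM2, MCM4, MCM5, CDC6 and RRM2 step down over gestation and stay low after birth, while PCNA, read by a dim probe, is not lower at birth. MCM10 lies near background at most ages, so that a fall could hardly show in it.

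The fall came in 3 steps of unequal size. From day 60 to day 135, 5 of 9 members were lower (8.14% of all genes were lower, 7.67% higher, and 15.8% passed in either direction), with a median member change of −0.63 against 0.03 for all genes. MCM2 changed by −0.90 ± 0.15 (adjusted p = 8.92e-06) and RRM2 by −0.88 ± 0.29 (adjusted p = 0.0303), and CDC6, MCM5 and MCM4 by between −0.73 and −0.63. MCM6 (−0.41, adjusted p = 0.347), PCNA (−0.25, adjusted p = 0.216), MCM7 (−0.18, adjusted p = 0.472) and MCM10 (−0.06, adjusted p = 0.921) did not pass. In 6 members, those that passed and PCNA, every day 135 value lay below both day 60 values, as in 13.7% of all genes.

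From day 135 to day 195, 4 of 9 members were lower (12.5% of all genes were lower and 23.5% passed in either direction). MCM4 changed by −0.74 ± 0.13 (adjusted p = 1.54e-05), MCM2 by −0.56 ± 0.11 (adjusted p = 0.000216), CDC6 by −0.46 ± 0.11 (adjusted p = 0.000819) and MCM5 by −0.43 ± 0.14 (adjusted p = 0.0188). RRM2, at −0.49 ± 0.22, did not pass (adjusted p = 0.105). The values of the 4 genes that passed did not overlap between the ages, as was so for 8.58% of all genes in that direction.

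From day 195 to birth 7 members were lower and 1 was higher (30.8% and 35.0% of all genes, and 65.8% in either direction). RRM2 changed by −2.60 ± 0.21 (adjusted p = 5.48e-15), MCM4 by −2.02 ± 0.12 (adjusted p = 1.25e-19), CDC6 by −1.75 ± 0.10 (adjusted p = 2.53e-20), MCM2 by −1.68 ± 0.11 (adjusted p = 1.74e-18) and MCM5 by −1.44 ± 0.13 (adjusted p = 2.59e-13). With processed signals RRM2 changed by −5.93 and CDC6 by −4.36, and with its dim probe averaged in CDC6 changed by −0.82. MCM6 (−0.78 ± 0.19) and MCM7 (−0.45 ± 0.10) were lower by less. PCNA was higher by 0.66 ± 0.09 (adjusted p = 3.39e-08): it read 7.98 to 8.20 in the 5 animals of day 195 and 8.43 to 9.25 at birth, so that the groups did not overlap. Groups did not overlap for all 8 of these members, as for 22.9% of all genes downwards and 25.1% upwards.

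Without the array of GP672 the same numbers of members were lower in the earlier steps, 5 from day 60 to day 135 and 4 from day 135 to day 195. MCM2 then changed by −0.96 and −0.50, CDC6 by −0.68 and −0.52, MCM4 by −0.64 and −0.73, MCM5 by −0.68 and −0.43, and RRM2 in the first step by −0.81 (adjusted p = 0.0432). The RRM2 call of the first step did not hold without all the arrays of replicate 2 (adjusted p = 0.0706), nor did the CDC6 and MCM5 calls of the second step without those of replicate 1 (adjusted p = 0.0934 and 0.142). With each array centred on its median and no scaling between arrays, 1 member passed in the first step and none in the second, and MCM7 from day 195 to birth was 0.0105, with no fall, and from day 60 to birth −0.24 (adjusted p = 0.696); there the median of all genes moved to 0.198 for that step and to 0.319 for day 60 to birth. All 4 ages lay on the same 3 slides, and with slide as a block 5, 5 and 8 members passed in the 3 steps.

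**Figure D2:**
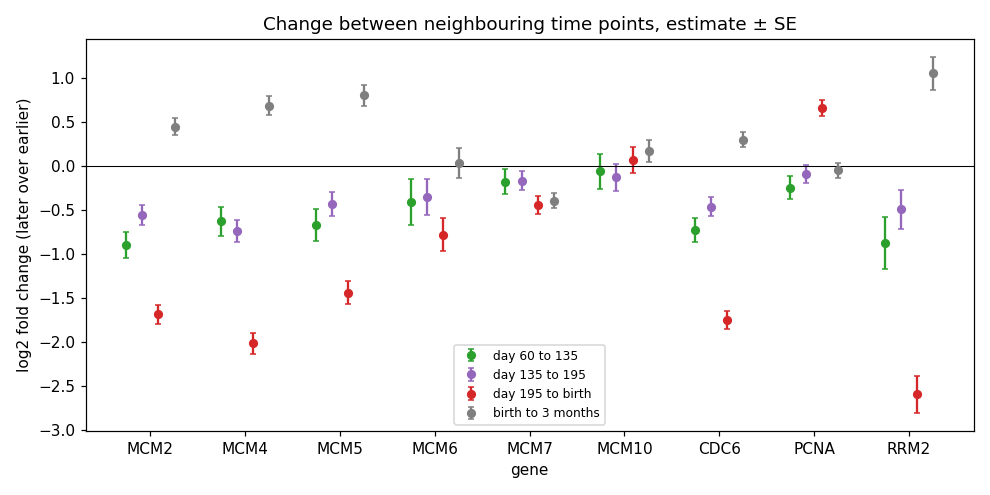
Log2 difference between neighbouring ages of gestation, and from birth to 3 months (vertical axis, later less earlier age, log2 units), as the limma estimate with bars of 1 SE. The step from day 195 to birth is the largest one for RRM2, MCM4, CDC6, MCM2 and MCM5, at −2.60 to −1.44, and PCNA lies above 0 in it.

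Cell type markers moved over the same span. From day 60 to birth 6 of 8 muscle fibre markers were higher, while 6 of 6 fibroblast, 4 of 4 erythroid and 3 of 3 muscle precursor markers were lower, with medians of −3.02, −4.79 and −2.35 (36.6% of all genes were higher and 30.4% lower). Of 4 endothelial markers 2 were higher and 1 lower, of 5 immune markers 2 were higher and 1 lower, and none of 3 adipocyte markers passed. Their part in the fall of the licensing genes was not tested.

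After birth 7 of the 9 members stayed below their day 60 level, while PCNA and MCM10, the latter near background, stood at or above it. In the 48 channels from 3 to 30 months the age means of MCM2 lay at 14.2% to 18.2% of the day 60 signal, those of MCM4 at 12.7% to 15.6%, those of CDC6 at 13.3% to 15.9% and those of RRM2 at 7.20% to 13.3%. MCM5 kept 18.6% to 30.1%, MCM6 29.7% to 35.9% and MCM7 41.5% to 52.3%. PCNA stood at 107% to 126% and MCM10 at 102% to 170%. These shares rest on normalized intensities, which are compressed near background, so that those of RRM2, CDC6, MCM6 and PCNA are not exact. MCM10 was near background already at day 60, where 3 of 6 channels were well above it, so that its share can hardly show a fall. Prenatal and post-natal samples lay on different slides. RRM2 was well above background in 32 of the 48 post-natal channels, CDC6 in 31 and MCM10 in 25, and the others in all 48.

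**Figure D3:**
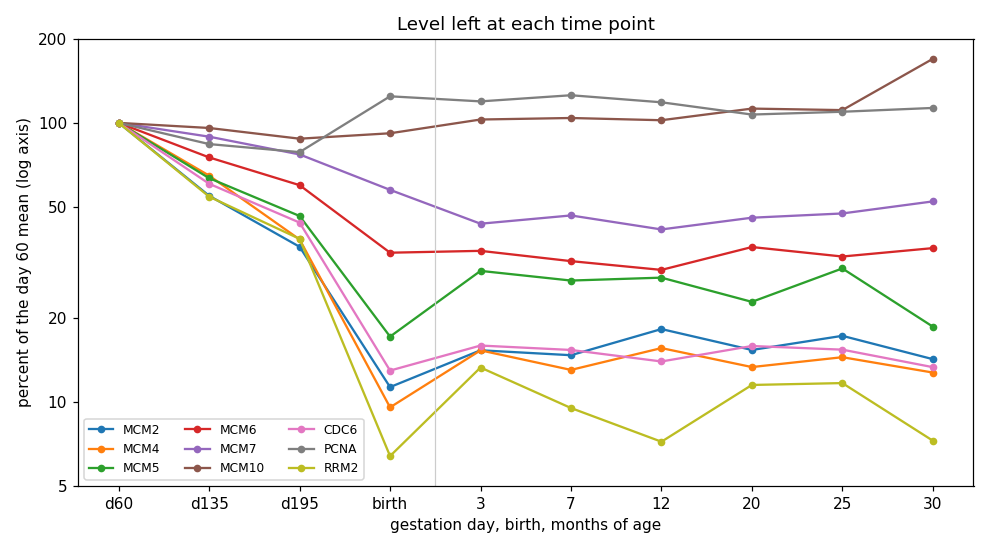
Mean level of each tested member at each age as a percentage of its day 60 mean (vertical log axis), joined by lines. From birth on, RRM2, CDC6, MCM4 and MCM2 lie between 6.40% and 18.2% (those of RRM2 and CDC6 near background and not exact), MCM5 and MCM6 between 17.1% and 35.9%, MCM7 between 41.5% and 57.5%, and PCNA and MCM10 near or above 100%. The shares of MCM6 and PCNA, both dim, are not exact either, and MCM10 was near background already at day 60.

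From birth to 3 months the fall was partly undone. Of 9 members, 5 were higher and 1 was lower, against 23.4% and 24.9% of all genes and 48.3% in either direction. RRM2 changed by 1.05 ± 0.19 (adjusted p = 8.2e-06), from 6.74 to 7.03 at birth to between 7.23 and 8.44 at 3 months, with no overlap. Since 1 of 6 birth channels was well above background, this size is not exact: it was 1.52 with the offset of 10, 3.69 with processed signals and 0.86 with median centring and no scaling between arrays. MCM5 changed by 0.80 ± 0.12 (adjusted p = 2.24e-07), MCM4 by 0.68 ± 0.11 (adjusted p = 7.72e-07), MCM2 by 0.45 ± 0.10 (adjusted p = 0.000146) and CDC6 by 0.30 ± 0.09 (adjusted p = 0.00471; 0.48 with the offset of 10 and 1.5 with processed signals). MCM7 went the other way, by −0.40 ± 0.09 (adjusted p = 0.000256), from 12.33 to 12.73 at birth to between 11.93 and 12.20. The values of MCM4, MCM5 and RRM2 upwards and of MCM7 downwards did not overlap between these ages, as for 8.15% and 8.06% of all genes.

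No slide held both birth and 3-month samples, so age and slide cannot be told apart in this step. With arrays centred on their medians and no scaling between them, 1 member passed. With the dim CDC6 probe averaged in, the CDC6 difference was 0.04 (adjusted p = 0.609), and it did not pass without replicate 1 or 3 (adjusted p = 0.0569 and 0.0573). Over the same step 4 of 6 fibroblast markers and 2 of 3 muscle precursor markers were higher. So were 1 of 4 endothelial, 1 of 4 erythroid and 2 of 5 immune markers, and no muscle fibre or adipocyte marker passed. Of all genes 23.4% were higher and 24.9% lower, and the part of the markers was not tested.

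Among the later ages the members did not all move the same way. From 3 to 20 months, ages that share 4 slides, MCM5 alone passed, at −0.37 ± 0.09 (adjusted p = 0.00188), where 27.1% of all genes passed. With slide as a block 3 members passed, and the share of all genes in that fit is not given here. In order of level, MCM5 was highest at 25 months (11.57 ± 0.39, SD, n = 8), then at 3 months (11.55 ± 0.12, n = 8), 12 months (11.46 ± 0.14, n = 6), 7 months (11.43 ± 0.22, n = 8), 20 months (11.18 ± 0.14, n = 8) and 30 months (10.88 ± 0.14, n = 8). Neighbours in that order from 25 to 7 months differed by less than their spread. Samples of 25 and 30 months lay on other slides than those of 3 to 20 months, so age and slide cannot be told apart between these sets.

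RRM2 had the widest range of the members after birth, from 6.80 to 8.88. Its mean was 7.91 ± 0.40 (SD, n = 8) at 3 months, 7.72 ± 0.55 (n = 8) at 25 months, 7.70 ± 0.25 (n = 8) at 20 months, 7.42 ± 0.27 (n = 8) at 7 months, 7.03 ± 0.19 (n = 8) at 30 months and 7.02 ± 0.11 (n = 6) at 12 months. It was lower at 7 than at 3 months, by −0.49 ± 0.15 (adjusted p = 0.0171; 17.6% of all genes passed in that step), and higher at 20 than at 12 months, by 0.64 ± 0.17 (adjusted p = 0.00773; 11.4% of all genes). In the steps not yet given, MCM2 was higher at 12 than at 7 months by 0.33 ± 0.09 (adjusted p = 0.00883; 12.1% of all genes) and MCM5 at 25 than at 20 months by 0.40 ± 0.09 (adjusted p = 0.00317; 11.9% of all genes). MCM4 was lower at 7 than at 3 months by −0.25 (adjusted p = 0.035), and at 20 than at 12 months MCM5 was lower by −0.32 (adjusted p = 0.0343) and MCM2 by −0.25 (adjusted p = 0.0417). For RRM2 the levels at 25 and 20 months, and those at 30 and 12 months, differed by less than their spread. No slide held samples of both 20 and 25 months, so age and slide cannot be told apart in that step.

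From 25 to 30 months, ages that share 2 slides, 4 members were lower and 1 was higher, against 9.44% and 11.8% of all genes and 21.2% in either direction. MCM5 changed by −0.69 ± 0.09 (adjusted p = 1.85e-07), RRM2 by −0.69 ± 0.15 (adjusted p = 0.000512), MCM2 by −0.28 ± 0.07 (adjusted p = 0.00568) and CDC6 by −0.21 ± 0.07 (adjusted p = 0.0256). The CDC6 call was lost without replicate 1, 2 or 3 (adjusted p = 0.135, 0.17 and 0.145) and the MCM2 call without replicate 3 (adjusted p = 0.0561). At 25 months RRM2 ran from 7.14 to 8.88 with a median of 7.60, and at 30 months from 6.80 to 7.45 with a median of 7.01, so that the ages overlapped; 1 of 8 channels was well above background at 30 months, and the change was −2.07 with processed signals.

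MCM10 was higher at 30 months, by 0.61 ± 0.10 (adjusted p = 1.13e-05). Its values were 6.99 to 7.42 at 25 months, with a median of 7.17, and 7.49 to 8.58 at 30 months, with a median of 7.65, and did not overlap, as was so for 1.80% of all genes in that direction. The 30-month channels were well above background in 8 of 8 and the 25-month channels in 3 of 8, and with processed signals the difference was 1.94. With median centring and no scaling between arrays the differences of MCM2 and MCM5 turned to 0.75 and 0.28 and that of MCM10 did not pass (0.19, adjusted p = 0.359), where the median of all genes was 0.474. Over this step 4 of 4 erythroid markers (median −3.13), 3 of 6 fibroblast and 2 of 5 immune markers were lower, against 9.44% of all genes. Of 4 endothelial markers 1 was higher, against 11.8% of all genes, and no other marker passed. The part of the markers was not tested.

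The 2 crosses were not told apart by these genes in this fit, which did not pair the 2 animals of an array. A paired fit of the crosses is not given here. The fetal difference averages the fetal ages with equal weight, although day 60 has 1 animal of each cross, and it includes GP672. The cross difference, Piedmontese less Wagyu cross, passed for 0 of 9 members in the fetus (0.832% of all genes passed), for 0 at birth (1.90%) and for 0 after birth (0.0205%). At an unadjusted p under 0.05 by limma, 0, 1 and 0 members passed, of 671, 2006 and 496 genes in all. Over the members the 95% intervals of the difference ran from −0.57 to 0.49 in the fetus, from −0.70 to 0.74 at birth and from −0.45 to 0.23 after birth; differences up to these sizes lie within the error. The cross difference in the fetus less that after birth also passed for 0 of 9 (0.498% of all genes).

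In the diet trial the members did not move as one. At time 1 RRM2 was lower and MCM2 and MCM7 were higher in restricted than in growth animals, and 6 members did not pass. This fit did not pair the animals of an array, and a fit that did is given below. The 3 calls compare with 10.3% of all genes lower, 10.9% higher and 21.2% in either direction. At time 0 none passed (4.68% of all genes did), and at time 2 none passed (0%; 283 genes and 0 members had an unadjusted p under 0.05 by limma). Fits on the array log ratios and on the deposited log ratios called 11 and 14 genes at time 2, and 0 members.

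RRM2 gave the largest difference between the diets among the members. At time 0 it read 7.60, 8.42, 8.29 and 7.11 in the 4 restricted animals and 7.16, 6.98, 7.11 and 7.30 in the 4 growth animals. At time 1 it read 6.94, 6.37 and 6.66 in the restricted animals and 8.34, 8.03, 7.83 and 8.20 in the growth animals. At time 2 it read 7.41 and 7.15 against 7.17 and 7.14. The groups overlapped at times 0 and 2 and stood apart at time 1, where restricted values were also all below growth values for CDC6 and MCM10 and for 14.9% of all genes.

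The restricted less growth difference of RRM2 was 0.72 ± 0.24 at time 0 (adjusted p = 0.1), −1.41 ± 0.26 at time 1 (adjusted p = 0.00148) and 0.07 ± 0.33 at time 2 (adjusted p = 1). In restricted animals 0 of 4 channels were well above background at time 1, so that the signal in growth animals was at least 2.64-fold higher, the bound being set by the lowest signals that were well above background (limma adjusted p = 0.00148). With processed signals the difference at time 1 was −3.42. The change of the difference from time 0 to time 1 was −2.13 ± 0.32 (adjusted p = 0.00117; 14.8% of all genes passed), and from time 1 to time 2 it was 1.48 ± 0.39 (adjusted p = 0.0449; 3.84% of all genes), a call that was lost under 9 of the 15 other settings tried. Within diets, restricted animals changed from time 0 to time 1 by −1.17 ± 0.23 (adjusted p = 0.00429; 18.7% of all genes) and growth animals by 0.96 ± 0.21 (adjusted p = 0.0169; 6.37%), although each time lay on a slide of its own.

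MCM2 at time 1 read 12.27, 12.06 and 12.32 in restricted animals and 11.65, 11.78, 11.75 and 11.65 in growth animals, with every restricted value above every growth value, as was so for MCM4 and MCM7 and for 15.6% of all genes. The difference was 0.52 ± 0.11 (adjusted p = 0.00427). At time 0 the values were 11.61, 11.64, 11.96 and 11.87 against 11.66, 11.77, 11.48 and 11.67, and overlapped. MCM7 at time 1 read 12.16, 12.55 and 12.52 against 11.77, 11.63, 12.00 and 11.90, a difference of 0.58 ± 0.12 (adjusted p = 0.00411). The MCM7 call did not hold without replicate 1 (0.45, adjusted p = 0.0696) and the MCM2 call with the dye effect left in (0.47, adjusted p = 0.052). The change of the difference from time 0 did not pass for MCM2 (0.39 ± 0.14, adjusted p = 0.0657) or MCM7 (0.42 ± 0.15, adjusted p = 0.0779).

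CDC6 leaned with RRM2. At time 1 it read 7.10, 6.87 and 7.17 in restricted animals and 7.60, 7.22, 7.34 and 7.42 in growth animals, a difference of −0.34 ± 0.14 that did not pass (adjusted p = 0.0906). The change of the CDC6 difference from time 0 to time 1 was −0.59 ± 0.17 (adjusted p = 0.0299). That call was lost under 7 of the 15 other settings tried, and its value was −0.37 (adjusted p = 0.164) without replicate 1. MCM4 (0.29 ± 0.12, adjusted p = 0.102), MCM5 (0.19 ± 0.16, adjusted p = 0.41), MCM6 (0.05 ± 0.19, adjusted p = 0.891), PCNA (−0.22 ± 0.12, adjusted p = 0.198) and MCM10 (−0.35 ± 0.16, adjusted p = 0.137) did not pass at time 1. With arrays read as log ratios, which pairs the 2 animals of each array, 5 members passed at time 1, 3 higher and 2 lower, so that the calls depend on the pairing. The share of all genes that passed at time 1 in that fit is not given here, so that this count has no comparison.

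Cell type markers also differed between the diets at time 1, where 10.3% of all genes were lower and 10.9% higher. In restricted animals 6 of 8 muscle fibre markers were lower and 1 was higher (median −1.47), and 4 of 6 fibroblast markers were lower (median −2.89). Of 4 endothelial markers 3 were lower (median −0.70). Of 3 precursor markers 1 was lower, although the median of the 3 was 0.39. No adipocyte, erythroid or immune marker passed. The mean level of the fibroblast list was 9.52 to 10.22 in restricted and 11.55 to 13.16 in growth animals, and that of the muscle fibre list 14.93 to 14.99 and 16.33 to 17.13. Their part in the RRM2, MCM2 and MCM7 differences was not tested. Of the defining precursor markers, PAX3 was too dim to be tested and PAX7 was not found by name.

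**Figure D4:**
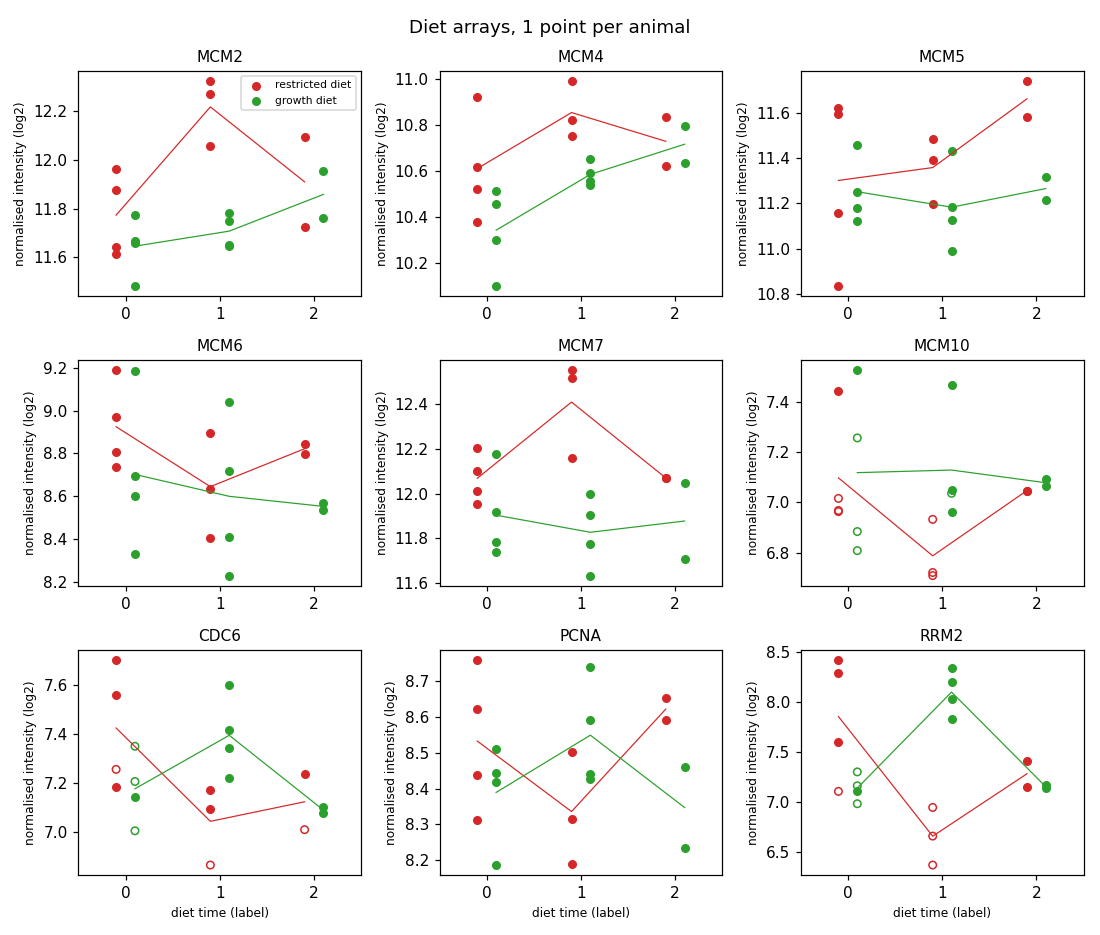
Log2 intensity of each tested member at diet times 0, 1 and 2, one panel per gene, with a point for each animal (4 and 4, 3 restricted and 4 growth, 2 and 2) (red restricted, green growth, open where none of its channels was well above background) and lines through the means. RRM2 separates at time 1, with restricted animals at 6.37 to 6.94 and growth animals at 7.83 to 8.34, while MCM2 and MCM7 separate in the other direction.

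Other genes of the replication machinery were read from 6 lists, 53 genes of which were bright enough. From day 60 to birth 39 of the 53 were lower and 5 were higher, with a median of −0.87 against 0.11 for all genes, of which 30.4% were lower and 36.6% higher. For origin recognition and loading 5 of 7 were lower, among them CDT1, the partner of CDC6 in loading the ring (−2.08 ± 0.16, limma adjusted p = 2.63e-16), and ORC6 (−1.63 ± 0.17, adjusted p = 5.08e-12). For helicase activation 6 of 7 were lower, among them GINS2 (−2.36 ± 0.13, adjusted p = 1.18e-20) and CDC45 (−1.42 ± 0.17, adjusted p = 6.98e-10), which join the ring to form the active helicase.

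Of 7 polymerase and primase genes 4 were lower, POLE2 by −1.19 and POLD3 by −1.18 being the largest changes. For clamp loading, strand binding and joining 8 of 10 were lower, of which LIG1, the ligase that joins Okazaki fragments, changed by −4.15 ± 0.15 (adjusted p = 4.03e-28) and the clamp loader RFC1 by −1.02. RFC5, another clamp loader subunit, was higher by 0.76 ± 0.13 (adjusted p = 6.88e-07).

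For deoxynucleotide supply 5 of 6 were lower. TYMS, thymidylate synthase, changed by −3.59 ± 0.16 and RRM1, the large subunit that pairs with RRM2, by −2.18 ± 0.14 (adjusted p = 6.19e-25 and 7.69e-19). For G1/S control 11 of 16 were lower and 4 were higher: CCND1, cyclin D1, changed by −4.08 and E2F2 by −2.78, while CCNE1 (0.27), E2F4 (0.62), RB1 (0.69) and RBL2 (0.67) were higher. Of these 4, RB1, RBL2 and E2F4 are known for holding cell cycle genes silent in resting cells, and CCNE1 is not. What their changes do here was not tested.

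From birth to 3 months 24 of the 53 were higher and 6 were lower (23.4% and 24.9% of all genes), and all 6 genes of deoxynucleotide supply were higher. From 25 to 30 months 7 were higher and 10 lower (11.8% and 9.44% of all genes), so that the share higher was near that of all genes. At diet time 1, 9 were higher and 6 lower in restricted animals (10.9% and 10.3% of all genes), the share lower being near that of all genes, with 5 higher and 1 lower of 10 for clamp loading, strand binding and joining, 3 of 7 higher for polymerases, 4 of 16 lower for G1/S control, and none of 7 for either origin loading or helicase activation.

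**Figure D5:**
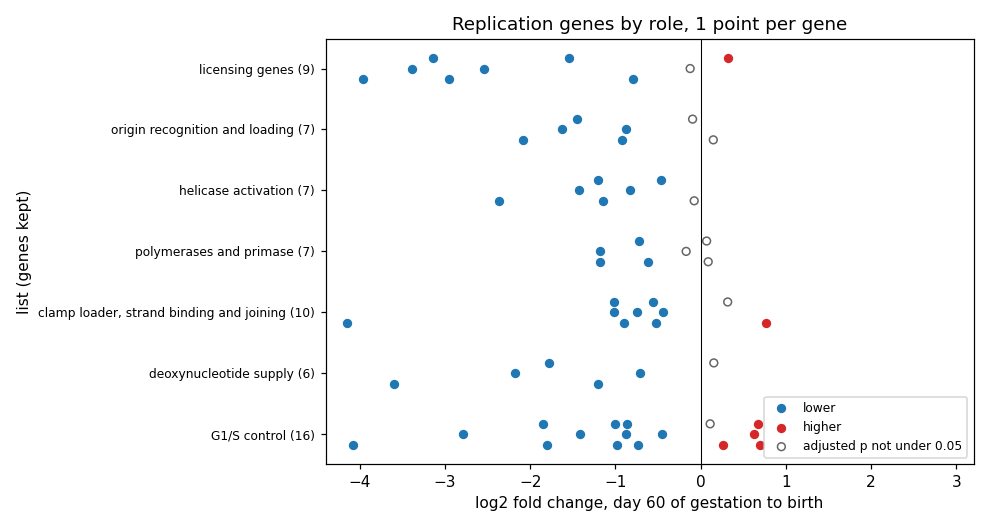
Log2 difference from day 60 of gestation to birth (horizontal axis) for each member and for each gene of the 6 replication lists (rows, genes spread vertically within a row), filled where the adjusted p was below 0.05. Most points lie left of 0, with LIG1 (−4.15) and CCND1 (−4.08) farthest, and 5 genes of the lists, RFC5, CCNE1, E2F4, RB1 and RBL2, lie right of 0 and passed.

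Over the 26 conditions the members shared a pattern that MCM10 and PCNA did not. The correlation of a member's condition means with the mean of the other members was 0.959 for CDC6, 0.948 for MCM2, 0.945 for MCM4, 0.927 for RRM2, 0.91 for MCM5, 0.828 for MCM6 and 0.815 for MCM7. It was −0.32 for MCM10, which was near background in many samples, and −0.646 for PCNA, whose probe was dim. These values describe 26 points that share arrays and animals and that are spread mainly by the difference between fetal and later samples. Within the 12 post-natal conditions the same measure ran from −0.707 for MCM10 to 0.629 for RRM2, and was −0.0242 for MCM2 and 0.0637 for MCM4.

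The 5 genes outside the list whose means followed the members most closely were HELLS (r = 0.987), a chromatin remodeller, CHEK1 (0.984), a checkpoint kinase, IGFBP2 (0.983), a binding protein for insulin-like growth factors, SKA1 (0.981), a kinetochore protein, and MND1 (0.98), a recombination protein, over the same 26 conditions.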

How the data were processed

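Total RNA of 48 two-colour arrays (96 channels, 35 animals, 12 slides, 6 scan sessions) was read from scanner files. Per the labels, Agilent Feature Extraction 9.5.1 made them. The spot intensity and local background intensity of each channel were used as the authors deposited them. The series value table was equal to the deposited log10 ratio (0 of 44407 spots differed on each array) and was used as an alternative, turned to log2. The authors' own analysis, a mixed model over 26 conditions of log2 intensities with effects of slide, print block and dye, was not repeated. Alignment and genome build do not apply, and gene names came from the files and from a RefSeq table of assembly ARS-UCD2.0.

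Intensities were corrected with limma 3.58.1 (R 4.3.3, normexp, offset 50), loess normalized within and Aquantile normalized between arrays. Spots were averaged to probes, probes to genes, a dye effect was estimated and subtracted per gene, and channels of 1 animal at 1 time were averaged. Probes well above background in at least 24 of 96 channels were kept (15822 of 21475; 14658 genes, 1000 with more than 1 probe). A linear model with conditions as group means and animal as a random block was fitted across all genes (64 values of 27 animals for development, 19 values of 8 animals for diet; block correlation 0.286 and 0.199), with Benjamini-Hochberg adjusted p under 0.05 as the threshold. The number of arrays limits the precision. The fit was also run on simulated data with normal errors, and the outcome is not given or used as support here. Animals were identified by their labels, and the animals sampled after birth and in the diet trial recur across times.

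The members and lists were chosen with earlier results of these data known. The text names all members, of each replication list the 2 with the largest change from day 60 to birth and those that passed against the trend of the list, and the 5 genes most correlated with the members. Replicate numbers of the gestation and birth arrays are slides by the labels: same-slide deviations correlated by 0.00514 to 0.471 (18 pairs) and those of other slides by −0.342 to 0.0936 (36 pairs). Alternatives were the background offset, processed signals, between-array scaling, the filter, the dye and animal terms, slide and array as blocks, prenatal arrays alone, deposited log ratios and leaving out each replicate. One was chosen after seeing the data, leaving out the day 135 array that stood apart.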

Additional observations from a re-analysis of the deposited data

Results flagged for a closer look

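In 9 of 108 groups, each a member at 1 age with both crosses pooled or in 1 diet group at 1 time, 1 animal lay far from the rest by Dixon's test at the 95% level, which chance alone gives in about 1 group in 20. MCM6, a subunit of the replicative helicase ring, was high in animal GW245 at 20 months (9.03 on the log2 scale, against 7.97 to 8.37 in 7 others) and at 25 months (9.17 against 7.55 to 8.26). MCM10, a helicase activator read near background, was high in restricted animal RL24 at time 0 (7.44 against 6.96 to 7.02) and in growth animal RG166 at time 1 (7.47 against 6.96 to 7.05). MCM4 was low in GP193 at birth (9.64 against 9.84 to 9.92), and MCM7 was high in GP285 at 12 months (12.34 against 11.87 to 12.04). PCNA, the sliding clamp, was high in GP041B at day 195 (8.20 against 7.98 to 8.04) and low in GW179 at 30 months (8.21 against 8.53 to 8.69). RRM2 of the same animal GW179 was high at 30 months (7.45 against 6.80 to 7.09), where it was the 1 channel of 8 well above background.

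The diet difference changed between times for 2 members, by the interaction term of the limma fit. From time 0 to time 1 the restricted less growth difference of RRM2 changed by −2.13 and that of CDC6 by −0.59, and from time 1 to time 2 that of RRM2 changed by 1.48.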

How the results depend on the processing

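Of 704 alternative values for 43 results on single members, 645 kept their direction and their side of the threshold, 56 kept their direction and no longer passed, and 3 reversed, all 3 with each array centred on its median and no scaling between arrays: MCM7 from day 195 to birth 0.0105 (adjusted p = 0.984), and from 25 to 30 months MCM2 0.75 (adjusted p = 0.0322) and MCM5 0.28 (adjusted p = 0.425). The causes were not tested.

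Under that centring the numbers of members that passed were 1 from day 60 to day 135, 0 from day 135 to day 195, 1 from birth to 3 months, 0 from 3 to 20 months, and 1 and 0 for the change of the diet difference from time 0 to 1 and from time 1 to 2. Agilent's processed signals gave 3 from day 60 to day 135 and 2 from 3 to 20 months. A filter of all 96 channels, which leaves 6 members, gave 3 from day 60 to day 135, 2 from 25 to 30 months, and 0 and 0 for the 2 changes of the diet difference. For these changes quantile normalization, the dye effect left in and no animal term each gave 1 and 0, and a filter of 6 channels or none gave 0 for the second. The 2 alternatives on dim probes also test MCM3.

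Leaving out each array replicate in turn gave 4 to 5 members from day 60 to day 135, 2 to 5 from day 135 to day 195, 7 to 8 from day 60 to birth, 5 to 6 from birth to 3 months, 1 to 2 from 3 to 20 months, 3 to 5 from 25 to 30 months, 0 to 1 for the cross at birth, 0 to 1 for diet at time 0, 2 to 3 at time 1, and 1 to 2 and 0 to 1 for the 2 changes of the diet difference. The fewest from day 135 to day 195, and the lost MCM7 call at diet time 1 (0.45, adjusted p = 0.0696), came without replicate 1.

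With the slide, which the replicate number marks in gestation, as a block, 5, 5 and 8 members passed in the 3 steps and 7 from day 60 to birth, where PCNA was lost (adjusted p = 0.0725). With slide as a block among post-natal arrays, 3 passed from 3 to 20 months and 5 from 25 to 30 months. With the array as a block, through its log ratio, 5 passed at diet time 1 (3 higher, 2 lower) and 3 and 2 for the changes of the diet difference. No other call of the main fits was lost under these blocks, while some members that had not passed there did pass. The shares of all genes that passed under the alternatives of this section are not given, so that the counts only show how far the calls held.

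Signal over background limits RRM2, CDC6 and MCM10 after birth, where 32, 31 and 25 of 48 channels were well above it. MCM6 and PCNA were well above it in all 48 but dim, and MCM10 was near it in the fetus too. Prenatal and post-natal arrays were never on one slide.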

Other observations

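MCM6, a subunit of the replicative helicase ring, stood high in one animal at each age at which it was measured. In GW245, a Wagyu cross, its log2 level was 8.83 at 3 months, 8.77 at 7 months, 9.03 at 20 months, 9.17 at 25 months and 9.20 at 30 months. In each case this was above all 7 other animals, whose means lay 0.68, 0.75, 0.86, 1.15 and 1.07 lower. Over 46 post-natal values of 9 animals the within-animal correlation of MCM6 was 0.803, above that of 99% of genes, where the median gene had 0.199 and RRM2 −0.011. Without GW245 the within-animal correlation of MCM6 was 0.539 (41 values, 8 animals), and the median gene had 0.187.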
